A study of Mus musculus with 12 samples.

Results

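The 43 sarcomere and contractile protein genes described here are grouped by the part of the sarcomere that their proteins form or act on. These parts are the thick filament (11 genes, with Mylk3 and Smyd1 counted there), the thin filament (18 genes), titin and the M-band (3 genes) and the Z-disc with its links (11 genes). The genes were chosen by name, from the known place of their proteins in striated muscle, with earlier results of these data known. They make up 43 of the 22367 protein-coding genes annotated on the 19 autosomes, X and Y. BRG1 ChIPseq was measured in 12 libraries from cells that were differentiated from mouse W4/129S6 embryonic stem cells through embryoid bodies and monolayer culture. Of these, 3 came from wild-type cardiac progenitors (CPs), 2 of them with an antibody to BRG1 and 1 from input DNA. The 9 libraries of CPs lacking BAF170 and of cardiac myocytes (CMs) that were wild type, BAF170 KO or BAF60c KO were not analysed here. The values are the positions of the BRG1-binding regions listed for wild-type CPs, 4791 rows that name 3473 distinct regions on mouse genome assembly mm9. The study gives the number of rows as that of its CP sites and the number of distinct regions as that of its CM sites. Whether the repeated rows are an error of the list is not settled. The number of rows of a region is therefore given in places and used as a filter, but is not read as a measure of binding. This single list gives no height and no value per library, so that no spread between replicates can be given, the depth is unknown, and a gene without a listed region may be unbound or below the authors' threshold. For the same reason the cells could not be checked against the level of any cell type marker.

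BRG1 is the ATPase of BAF complexes, which use ATP to move or evict nucleosomes and so change access to DNA. In the sarcomere, myosin heads of the thick filament pull on actin in the thin filament, troponin and tropomyosin make that pull depend on calcium, and titin and the Z-disc hold the filaments in register. Many sarcomere genes have a non-muscle relative or an isoform that is made outside muscle from a different promoter. Serum response factor (SRF) binds the CArG box, and MEF2, GATA and TEAD factors bind further elements that are well known at muscle promoters.

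Sequences chosen as examples from these genes are shown first, on mm9 and on the strand of the gene, from 5′ to 3′. In the first group stand regions with few CpG dinucleotides, at the transcription start site (TSS) of Nebl, at that of Mylk3 and in an intron of Tnni1, followed by those between genes near Tnnt2, Myl2 and Pdlim5. Capitals mark the words searched on both strands, which were TATAAA, the GATA word AGATAA, the T-box word AGGTGTGA, the M-CAT word CATTCC, the SRF CArG box and the MEF2 site, where a TATAAA word can lie within a MEF2 site. From the wider Nebl region, 300 bases outside exons are given, picked as the stretch with the most of these words, TATAAA left aside. From that of Mylk3 the 152 bases outside exons are given. The regions of Tnni1 and Myl2 hold none of the words.
Nebl, chr2:17381592-17381891, minus strand: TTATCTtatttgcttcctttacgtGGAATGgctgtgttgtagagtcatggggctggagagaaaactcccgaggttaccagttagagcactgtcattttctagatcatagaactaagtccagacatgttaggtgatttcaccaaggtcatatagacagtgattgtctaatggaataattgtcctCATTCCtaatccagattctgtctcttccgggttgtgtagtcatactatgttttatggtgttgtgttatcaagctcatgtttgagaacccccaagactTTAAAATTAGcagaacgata
Mylk3, chr8:87904934-87905085, minus strand: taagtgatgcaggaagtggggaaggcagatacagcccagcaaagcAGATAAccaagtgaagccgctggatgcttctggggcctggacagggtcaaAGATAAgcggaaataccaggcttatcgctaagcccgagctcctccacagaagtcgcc
Tnni1, chr1:137697186-137697465, plus strand: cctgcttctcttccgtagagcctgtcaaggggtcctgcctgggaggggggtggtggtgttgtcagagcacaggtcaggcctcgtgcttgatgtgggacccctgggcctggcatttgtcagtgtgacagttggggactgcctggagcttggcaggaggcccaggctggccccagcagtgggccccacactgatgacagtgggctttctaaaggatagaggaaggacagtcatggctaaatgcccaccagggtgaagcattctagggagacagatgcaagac
Tnnt2, chr1:137732646-137732765, plus strand: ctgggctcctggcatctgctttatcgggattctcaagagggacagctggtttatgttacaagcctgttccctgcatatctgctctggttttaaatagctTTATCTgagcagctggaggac
Myl2, chr5:122544606-122544845, plus strand: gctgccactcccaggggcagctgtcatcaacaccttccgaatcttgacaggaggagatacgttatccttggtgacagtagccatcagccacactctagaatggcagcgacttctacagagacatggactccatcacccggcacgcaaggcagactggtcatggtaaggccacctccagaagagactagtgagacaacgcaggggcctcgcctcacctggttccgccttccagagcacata
Pdlim5, chr3:142092986-142093285, minus strand: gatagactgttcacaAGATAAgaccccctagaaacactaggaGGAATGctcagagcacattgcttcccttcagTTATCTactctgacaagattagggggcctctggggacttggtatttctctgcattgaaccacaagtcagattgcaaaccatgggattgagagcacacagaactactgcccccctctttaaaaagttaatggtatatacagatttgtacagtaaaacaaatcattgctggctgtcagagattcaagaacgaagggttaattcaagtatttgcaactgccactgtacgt

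For contrast, the 200 bases before the first TSS of Tpm1 lie in a listed region and have 17 CpG, which capitals mark here.
Tpm1, chr9:66897214-66897413, minus strand: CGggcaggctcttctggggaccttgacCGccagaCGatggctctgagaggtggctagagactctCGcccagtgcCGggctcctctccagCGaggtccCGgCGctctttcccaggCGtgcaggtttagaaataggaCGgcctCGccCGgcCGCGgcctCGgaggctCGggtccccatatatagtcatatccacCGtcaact

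The 150 bases before the first TSS of Acta1, Myl7 and Myl3 each hold a CArG box and an M-CAT word, marked in capitals as above, and none of these 3 genes had a listed region at its promoter.
Acta1, chr8:126418652-126418801, minus strand: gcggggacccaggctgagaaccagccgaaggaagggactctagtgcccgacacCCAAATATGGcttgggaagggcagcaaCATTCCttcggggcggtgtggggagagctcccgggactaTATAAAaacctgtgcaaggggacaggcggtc
Myl7, chr11:5798786-5798935, minus strand: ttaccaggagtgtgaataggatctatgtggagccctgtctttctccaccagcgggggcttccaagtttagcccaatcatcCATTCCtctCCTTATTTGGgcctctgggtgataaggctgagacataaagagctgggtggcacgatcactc
Myl3, chr9:110666000-110666149, plus strand: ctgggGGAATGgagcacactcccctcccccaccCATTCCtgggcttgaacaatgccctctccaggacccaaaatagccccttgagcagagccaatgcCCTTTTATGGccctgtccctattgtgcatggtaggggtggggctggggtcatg

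At the promoter, taken as 1 kb either side of any annotated TSS, 9 of the 43 genes had a listed BRG1 region. These were Myl4, Mylk3, Tnni1, Tpm1, Tpm4, Nebl, Tmod1, Des and Pdlim5. Their share was 20.9% (95% Wilson interval 11.4 to 35.2), against 11.9% of the 22323 other protein-coding genes, which lies inside that interval. The interval covers counting error only. Among other genes with the same promoter CpG count, within 3 CpG, the mean share was 4.69%, or 2.02 of 43 genes. When genes were compared by the GC content of the promoter in place of CpG, that share was 11%. The sarcomere genes also had more annotated TSSs, with a median of 4 against 2, and among other genes with the same number of TSSs, within 1, the share was 15.6%. That last comparison was added after the data had been seen. No P-value is given for any of these shares, since genes are not replicates.

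Gene bodies, from the annotated start to the annotated end, held a region in 7 of the 43 genes (16.3%, interval 8.12 to 30), against 12.3% of other genes and 5.43% of those with the same promoter CpG count. Among the genes nearest in length, 14.2% had one, which lies inside the interval. All 7 were genes with a region at the promoter. With 1 kb either side of every TSS left out, 0 of the 43 genes had a region in the body, which allows a share of up to 6.98% (3 counts of 43), and 1.85% of other genes had one. Thus Ttn, which encodes titin and spans 278568 bp, and Neb, which encodes nebulin and spans 202152 bp, had no listed region within them. Within 100 kb of the gene, 28 of the 43 genes (65.1%, interval 50.2 to 77.6) had a region, against 40.3% of other genes and 35.8% of those with the same promoter CpG count. Sarcomere genes had a median of 13 TSSs of other protein-coding genes within 100 kb, against 10 for other genes, and among genes with a like number of such TSSs the share was 49.2%. This share too lies below the interval, but only just. The interval takes the genes as independent, although 6 of the regions lay near more than 1 of them. The gap between 49.2% and the lower limit of 50.2% is therefore not read as a difference.

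**Figure D1:**
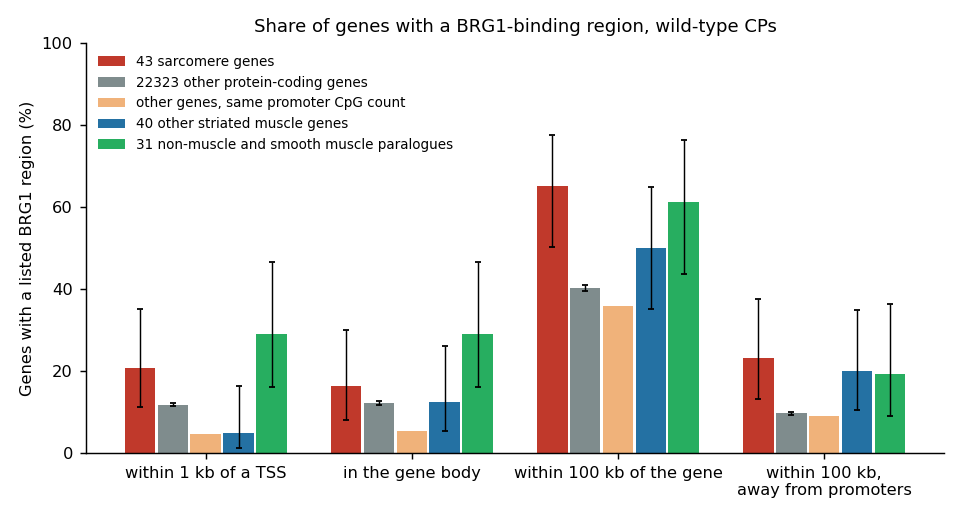
Percent of genes with a listed BRG1 region (vertical axis) by place (horizontal axis), for the 43 sarcomere genes, other protein-coding genes, those with the same promoter CpG count and the wider muscle and non-muscle lists; bars are shares and lines are 95% Wilson intervals for counting error (none is drawn for the mean over genes with the same CpG count). The sarcomere genes reach 20.9% at promoters and 65.1% within 100 kb, and the other striated muscle genes 5% and 50%.

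The number of CpG at the promoter was low in most of these genes. The median was 35 in the 43 genes and 66 in other protein-coding genes, counted within 1 kb of the TSS with the most CpG. The 9 genes with a region had a median of 101 (range 32 to 120) and the 34 genes without one a median of 34 (range 10 to 107), so that the ranges overlap. Among the 18 genes with 40 or more CpG, 7 had a region, and among other genes with that many, 18.3% did. Of the genes without a region, Tpm2 (107 CpG), Tpm3 (96 CpG) and Tnnt1 (74 CpG) had the highest counts. The count of Tpm3 is that of a TSS 7242 bp inside the gene, and its first TSS has 16. That of Tnnt1 is at a processed transcript 8357 bp inside, and its first TSS has 19. Among the 25 genes with under 40 CpG, 2 had a region (Mylk3 and Tnni1), and of the 7827 other genes with so few CpG only 9 did (0.115%). Nebl belongs with these 2 by position, since its region lay at a TSS with 13 CpG and not at its first TSS, which has 101.

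**Figure D2:**
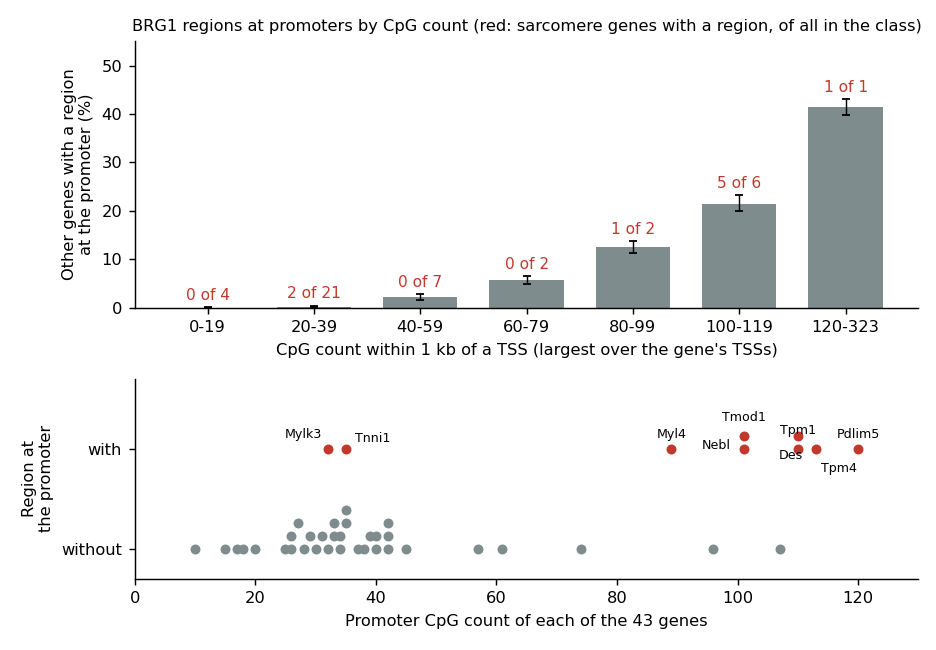
Above, percent of other protein-coding genes with a BRG1 region at the promoter (vertical axis) by promoter CpG count (horizontal axis), with 95% Wilson intervals and, in red, the number of sarcomere genes with a region among all those in the class; below, the CpG count of each of the 43 genes, with and without a region (points are raised only to keep them apart). The share of other genes rises with the CpG count, and among the 25 sarcomere genes with under 40 CpG, the 2 with a region are Mylk3 and Tnni1.

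The 9 genes had 10 distinct regions at their promoters, because Tpm1 had 2. Of 228 TSS positions annotated for the 43 genes, 35 had a region within 1 kb. At the first TSS, 6 genes had a region (14.0%, interval 6.56 to 27.3), against 10.9% of other genes and 4.29% of those with the same promoter CpG count. That count is the largest over a gene's TSSs. With the CpG count of the first TSS, a comparison added after the data had been seen, the share was 3.99%. In Mylk3, Tnni1 and Nebl the region lay at a later TSS only, and in each of them that TSS had under 40 CpG. Among TSSs of other protein-coding genes with under 40 CpG, 45 of 29617 had a region (0.152%), and among those with 40 or more, 6845 of 40116 (17.1%). The 10 regions had a median GC content of 64.1% and a median of 7.82 CpG per 100 bp, where the 2566 promoter regions of the whole list had 74.1% and 12.1. Median widths were 350 bp and 420 bp.

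In the thick filament group, 2 of 11 genes had a region at the promoter. At its first TSS Myl4, the atrial essential myosin light chain, shares a bidirectional promoter with Cdc27, a subunit of the anaphase-promoting complex. Its region, chr11:104411426-104411765, was 340 bp wide, was centred 0.382 kb upstream of the first TSS of Myl4 and overlapped 27 bp of Cdc27 coding sequence, so that it cannot be given to either gene. Transcripts of Myl4 with the same coding length of 582 bp also start 26322 and 26618 bp downstream. Those TSSs have 27 and 25 CpG and no region. Mylk3, the cardiac myosin light chain kinase, had a region of 160 bp (chr8:87904926-87905085) centred 72 bp from an internal TSS, 5.31 kb downstream of its first one. That TSS has 28 CpG, and of 6461 TSSs of other genes with the same count within 3, 14 had a region (0.217%). The Mylk3 region held 2 GATA words, both visible in the sequence above.

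Myl2, the ventricular regulatory myosin light chain, had no region at its promoter but had one of 240 bp between genes, 6.24 kb upstream of its first TSS. It held none of the words searched. Myl3, the ventricular essential light chain, had a region of 420 bp 18.0 kb downstream of its first TSS, also between genes, and further regions at the promoters of Pth1r and Prss50. The adjacent genes Myh6 and Myh7, which encode the alpha and beta cardiac myosin heavy chains, shared both of the regions within 100 kb of them. These regions lay at the promoters of Efs and Ppp1r3e, and the nearer one, at Efs, was 40.7 kb from the first TSS of Myh6 and 68.4 kb from that of Myh7. For Myl1, Myl7, Mybpc2, Mybpc3 and Smyd1, the nearest region was 118 to 477 kb from the first TSS.

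Of the 18 thin filament genes, 5 had a region at the promoter and 12 had one within 100 kb. Tpm1, the main tropomyosin gene of the heart, had a region of 360 bp (chr9:66897126-66897485) over its first TSS, from which the long isoforms start. A narrower one of 100 bp (chr9:66891706-66891805) was centred 5.46 kb inside, where the annotation has the TSSs of the short isoforms, which are made mostly outside muscle. Both TSSs are rich in CpG, with 94 and 88, and 13.9% and 12.6% of TSSs of other genes with such counts had a region. The remaining region of Tpm1 lay between genes, 50.1 kb upstream. Tpm4, a tropomyosin gene used mostly outside striated muscle, had a region of 160 bp (chr8:74659226-74659385) 0.147 kb downstream of its first TSS, 127 bp of it in coding sequence. Tmod1, which encodes the protein that caps the pointed end of the thin filament, had a region of 540 bp (chr4:46052046-46052585) listed on 4 rows, 0.508 kb downstream of its first TSS.

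Nebl encodes nebulette, a cardiac thin filament protein at the Z-disc, and from a separate upstream promoter the short LIM protein Lasp2. The transcript at the first TSS has a coding sequence of 813 bp, and this TSS, with 101 CpG, had no region. The region of Nebl, chr2:17381166-17382385, was centred 271 kb downstream of it, at the TSSs of 2 coding transcripts, of which the one with the longest coding sequence of the gene has 3045 bp. It was 1220 bp wide, was listed on 4 rows and covered exon and intron, with 373 bp in exons. Of 6302 TSSs of other genes with the same CpG count as the nearest TSS, 13 within 3, 1 had a region (0.0159%). Its GC content of 39.1% ranked 1 from the lowest among the 2566 promoter regions of the list. It held 4 GATA words and 4 TATAAA words. The part shown above, which was picked for its words, holds 1 GATA word, 2 M-CAT words and 1 MEF2 site. No other sarcomere gene had a region with as many GATA words.

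Tnni1 and Tnnt2 are neighbours on chromosome 1 and encode the slow skeletal and early cardiac troponin I and the cardiac troponin T. They shared 3 regions within 100 kb. One of them, chr1:137697186-137697465, lay in an intron of Tnni1 with its midpoint 915 bp downstream of an internal TSS with 18 CpG. This was 1 of 7 annotated TSSs of Tnni1, and the only one within 1 kb of the region, so that the gene no longer counted at 500 bp either side of a TSS. Of 7166 TSSs of other genes with the same count, 9 had a region (0.126%). A second region, chr1:137732646-137732765, lay between the genes, 4.75 kb upstream of the first TSS of Tnnt2, was 120 bp wide and held 1 GATA word. With promoters widened to 5 kb either side, Tnnt2 was the gene that joined, for 10 of 43. The remaining region was at the promoter of Phlda3, 17.0 kb upstream of the first TSS of Tnni1.

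The other thin filament genes with a region within 100 kb owed it to the promoter of a neighbour. Tnnt3 and Tnni2, of fast skeletal troponin, lie on either side of Lsp1, whose promoter region of 1060 bp was 27.3 and 29.7 kb from their first TSSs. A region at the shared promoter of Bap1 and Phf7 stood 42.9 kb from Tnnc1, the cardiac troponin C gene. Regions were also at Ubap2l, 20.6 kb from Tpm3, at Arl5a and Rif1 on either side of Neb, and at Pcif1, 99.8 kb from Tnnc2. In Actc1, Acta1, Tnnt1, Tnni3, Tpm2 and Lmod2, none lay within 100 kb. Actc1, the cardiac alpha-actin gene, was 822 kb from its nearest region, which was at the promoter of Ryr3. Acta1, the skeletal alpha-actin gene, was 240 kb away.

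Among the genes of titin and the M-band, 0 of 3 had a region at the promoter. Ttn was 298 kb from its nearest region. Myom1, which encodes the M-band protein myomesin, had 3 regions within 100 kb, at the promoters of Myl12b, 2900073G15Rik and Lpin2. Myl12b and 2900073G15Rik, which is Myl12a, encode non-muscle myosin light chains. Their promoter regions were 28.7 and 17.4 kb upstream of the first TSS of Myom1. Near Myom2 the region was 29.2 kb upstream, within the coding sequence of Kbtbd11, and had 16.7 CpG per 100 bp.

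Z-disc genes and those linked to it had a region at the promoter in 2 of 11 cases and within 100 kb in 8. Des, which encodes desmin, the intermediate filament protein that ties Z-discs together, had a region of 660 bp (chr1:75356166-75356825) listed on 2 rows and centred 0.409 kb upstream of its first TSS. Its first TSS has 110 CpG, yet the region itself had 3.48 CpG per 100 bp. Pdlim5, which encodes a PDZ and LIM protein that binds alpha-actinin, had a region of 1300 bp (chr3:142058186-142059485) over its first TSS, the widest at any sarcomere promoter, and one of 300 bp 34.5 kb upstream between genes. The latter held 2 GATA words and 42.7% GC. Xirp1, which encodes the actin-binding protein Xin, had a region of 1260 bp between genes 39.6 kb downstream of its first TSS. Tcap, which encodes telethonin, had one of 420 bp 74.1 kb downstream, and Myoz1, which encodes a calsarcin, had one of 160 bp 77.9 kb upstream beside one at the promoter of Fut11. Ldb3, Csrp3 and Myoz2 had a region only at the promoter of a neighbour, namely Bmpr1a, E2f8 and Usp53. Actn2, which encodes the alpha-actinin of the cardiac Z-disc, was 207 kb from the nearest region, and Myot 328 kb.

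**Figure D3:**
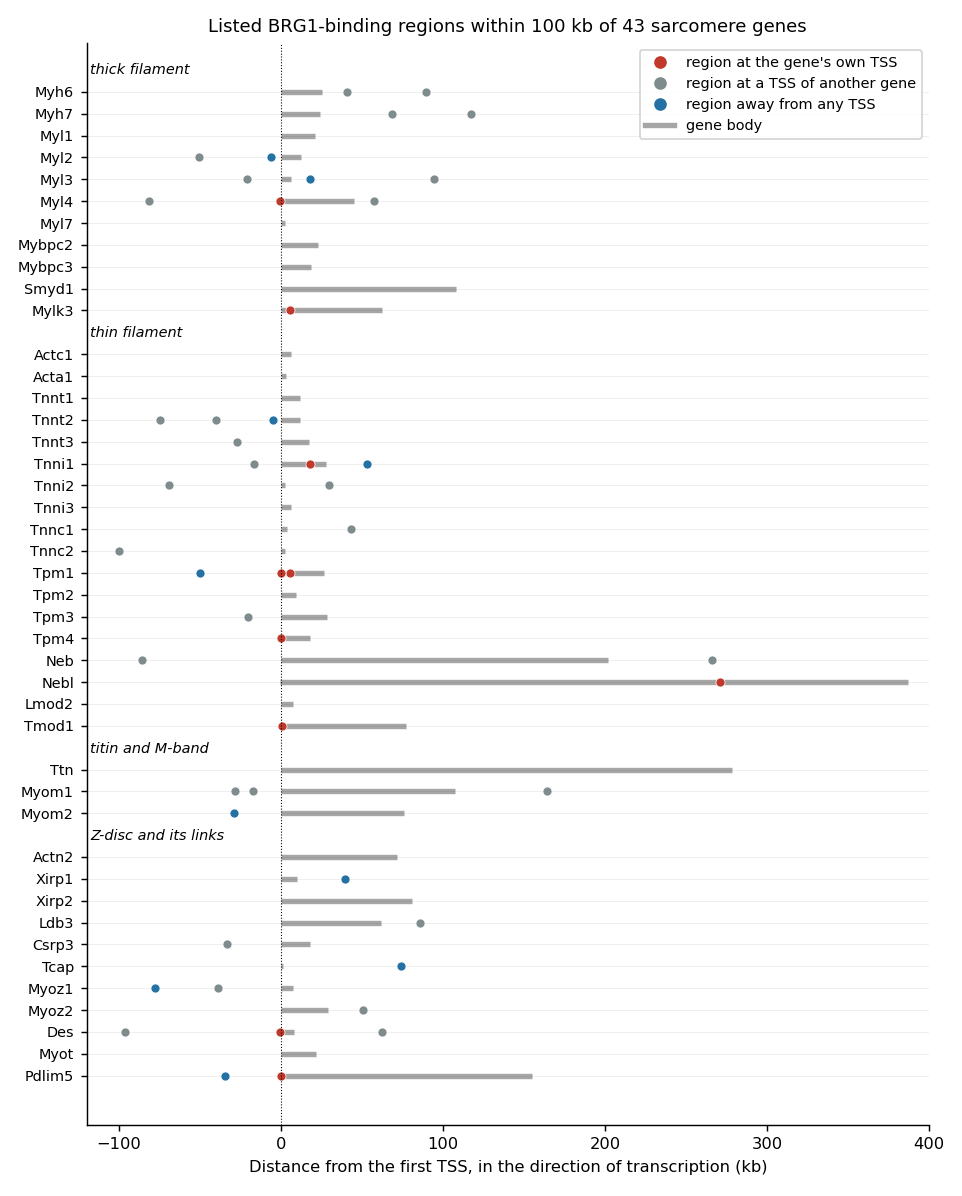
Position of each listed BRG1 region (points) within 100 kb of the 43 sarcomere genes, as distance in kb from the first TSS in the direction of transcription (horizontal axis), with gene bodies as grey bars and genes in rows by role. Regions at a gene's own TSS are red, those at a TSS of another gene grey and those away from any TSS blue; 15 rows hold no point, and the Nebl point lies 271 kb inside the gene.

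The 28 genes with a region within 100 kb had 43 distinct regions in all, of which 6 lay near more than 1 of the genes. These regions belonged to the pairs Myh6 and Myh7, Tnni1 and Tnnt2, and Tnnt3 and Tnni2. Of the 43 regions, 10 were at the promoter of a sarcomere gene, 24 (55.8%) at the promoter of another gene, 1 inside another gene and 8 between genes. Regions away from any promoter made up 9 of the 43 (20.9%), against 26.1% of the whole list. Of the 43 genes, 10 had such a region within 100 kb (23.3%, interval 13.2 to 37.7), against 9.73% of other genes and 8.99% of those with the same promoter CpG count. The shares were close to this in the 2 related lists set out below, with 20.0% of other striated muscle genes and 19.4% of non-muscle and smooth muscle paralogues. The 10 sarcomere genes were Myl2, Myl3, Tnni1, Tnnt2, Tpm1, Myom2, Xirp1, Tcap, Myoz1 and Pdlim5. Which gene a region between genes acts on is not known from its position.

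From the first TSS to the midpoint of the nearest region, the median distance was 50.5 kb in the 43 genes (95% interval from order statistics 29.7 to 118 kb) and 175 kb in other protein-coding genes. With regions on more than 1 row only, the median of the 43 genes was 492 kb, and no value for other genes is given here. To the nearest region away from promoters the median was 526 kb in the 43 genes and 988 kb in other genes. The 15 genes with none within 100 kb were Actc1, Acta1, Actn2, Myl1, Myl7, Tnnt1, Tnni3, Tpm2, Ttn, Mybpc2, Mybpc3, Xirp2, Smyd1, Lmod2 and Myot. Xirp2 (1026 kb), Actc1 (822 kb) and Myl1 (477 kb) were farthest from a region. These 15 include genes of both the ventricular and the atrial sarcomere and of skeletal muscle, such as Mybpc3, Myl7 and Acta1.

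**Figure D4:**
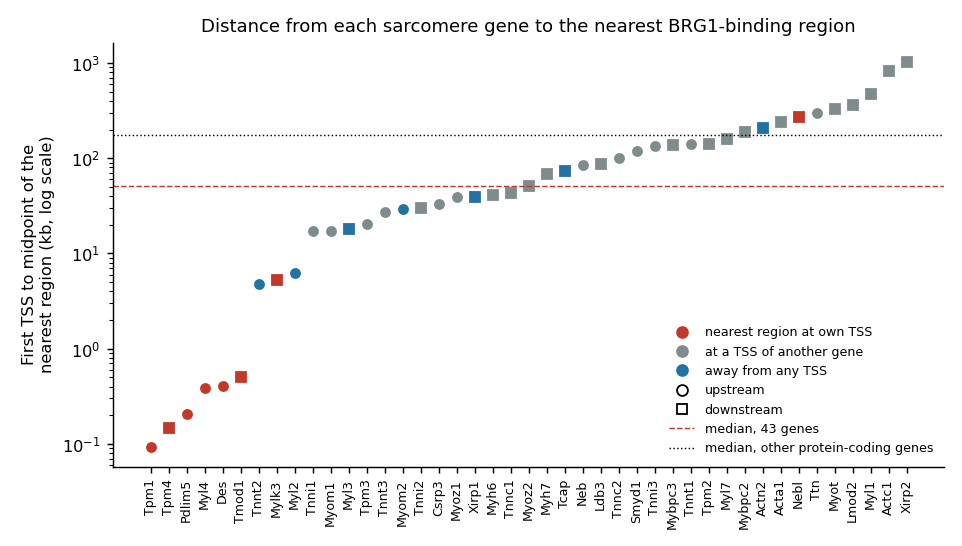
Distance in kb, on a log scale, from the first TSS of each of the 43 genes to the midpoint of its nearest listed region (vertical axis), with genes in order of distance (horizontal axis); colour gives the place of that region, circles are upstream and squares downstream. The dashed and dotted lines are the medians of the 43 genes (50.5 kb) and of other protein-coding genes (175 kb).

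Base composition differed among the 19 regions that were at a sarcomere promoter or away from any promoter. With a limit of 5 CpG per 100 bp, which was set after the values had been seen, 8 of the 19 were poor in CpG. Over all 43 regions within 100 kb, those at the promoters of neighbours included, 9 were (20.9%), a share near the 20.6% of the whole list. GATA words were in 4 of these 8, the regions of Nebl, Mylk3, Tnnt2 and the one upstream of Pdlim5, and in 0 of the other 11. In the whole list, they were in 34.4% of the 716 regions with under 5 CpG per 100 bp and in 3.84% of the 2757 others. GATA words were thus more frequent in CpG-poor regions over the whole list as well, and nothing here is particular to the sarcomere genes. Regions differ in width, and a wider one has more room for a word. The median of the 9 regions away from promoters was 8.10 CpG per 100 bp, against 1.77 in all 907 such regions, because those of Myl3, Myom2, Xirp1, Tcap and Myoz1 had between 8.10 and 16.7.

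**Figure D5:**
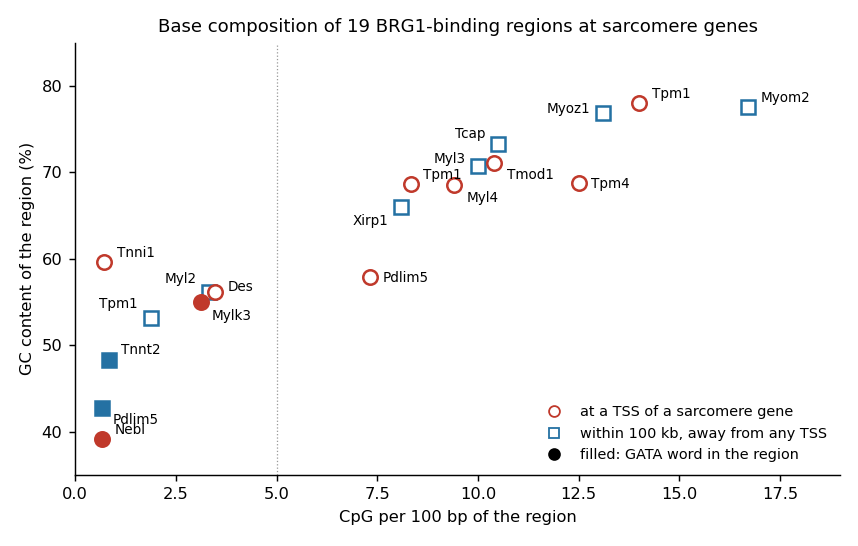
GC content in percent (vertical axis) against CpG per 100 bp (horizontal axis) of 19 listed regions, at a TSS of a sarcomere gene (circles) or within 100 kb and away from any TSS (squares), named by gene; filled symbols hold a GATA word. The dotted line is at 5 CpG per 100 bp, and the 4 filled symbols all lie to its left.

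Muscle promoter words were searched at the first TSS of all 43 genes, with or without a region. In the 300 bases from 250 before to 50 after the first TSS, a CArG box was present in 7 of the 43 genes (16.3%) and in 1.47% of all protein-coding genes. A MEF2 site was present in 10 (23.3%) and in 3.09%. For M-CAT the shares were 20.9% and 13.4%, for the GATA word 6.98% and 10.3%, for TATAAA 4.65% and 13.4%, and for the T-box word 0% and 1.13%. The 9 genes with a region at the promoter had 0 CArG boxes and 0 MEF2 sites in this window, so that all 7 and all 10 were in the 34 genes without one. The same split was not made over all protein-coding genes, and 9 genes are few, so that nothing is concluded from it. The CArG boxes were at Acta1, Myl3, Myl7, Neb, Myom1, Myom2 and Ldb3. Since 3 of the 9 genes had their region at a later TSS, the window does not cover those regions. In some genes it also misses the TSS of a longer coding transcript. At the first TSS of Actc1 the coding sequence has 129 bp, and one of 1134 bp starts 661 bp downstream. For Tnni3 these are 336 bp, and 636 bp from a TSS 1701 bp downstream. A missing word at such genes may thus lie outside the window, and a word is a run of letters and not a binding site.

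Related gene lists were set beside the 43 genes. Of 40 other striated muscle genes, such as skeletal myosin heavy chains and further Z-disc and titin-binding proteins, 2 had a region at the promoter, Nexn and Fhl2 (5%, interval 1.38 to 16.5), and 20 had one within 100 kb. Their median promoter CpG count of 37 was close to that of the 43 genes. Among 31 paralogues of non-muscle cells and smooth muscle, with a median of 95 CpG, 9 had a region at the promoter (29.0%, interval 16.1 to 46.6). They were Actg1, Actn1, Myh10, Myl12a, Myl12b, Mylk, Tmod3, Lasp1 and Vcl, and 19 of the 31 had a region within 100 kb. The intervals of the sarcomere genes and of either list overlap at the promoter, and also for regions away from promoters within 100 kb.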

How the data were processed

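Single-end reads of BRG1 ChIP and input DNA were trimmed by the authors (fastq-mcf), mapped to the mm9 assembly (Bowtie) and kept above a minimum mapping quality. Bins with more reads than input, at a threshold on the P-value, formed the list. Versions, and how the 2 libraries were combined, are not given in the sources used here. The deposited list holds positions in bp, with 4791 rows for 3473 distinct regions, and no height or P-value. Each distinct region was counted once, with starts read as counted from 0 and printed from 1. Cells were crosslinked with disuccinimidyl glutarate and formaldehyde and chromatin was digested with MNase, per the labels.

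Regions were set against the mm9 sequence and GENCODE release M1 with Python 3.11.15, pysam 0.24.0, scipy 1.17.1, numpy 2.4.6, matplotlib 3.10.9 and samtools 1.23.1. A promoter was 1 kb either side of an annotated TSS, and a gene's promoter CpG count was the largest over its TSSs. For each gene, other protein-coding genes within 3 CpG gave the share with the same CpG count, averaged over the 43 genes. A second, longer gene model named Tnnc1 was left out. The intervals of shares are those of Wilson at 95% and cover counting error alone. The overlap, distance and CpG steps were tested on simulated data. Genes were named if they had a region at the promoter, in the body or away from promoters within 100 kb, if they were among the 3 farthest from a region, or if the study draws them, and neighbours if they own a promoter with a region. Genes named otherwise, such as those without a region, those with regions only at a neighbour's promoter and members of the wider lists, were chosen after their values had been seen. The 43 genes, the wider lists and the words were chosen with earlier results of these data known. Alternatives were other promoter windows and TSSs, region filters, distances and choices of comparison genes.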

Additional observations from a re-analysis of the deposited data

How the results depend on the processing

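Of 32 alternatives to 7 values, 17 left it within 1.5 times for a count of genes, or within its 95% interval for a share or a median, and 3 were added after the data had been seen. At the promoter, 6 to 10 of the 43 genes had a region with windows of 500 bp, 2 kb or 5 kb, the upstream side only, protein-coding transcripts only, the first TSS only, region midpoints, regions of 200 bp or more, or regions near no other protein-coding gene's TSS (8, an added alternative). With regions on more than 1 row only, 4 genes had one at the promoter (3.19% of other genes), 3 in the body (3.23%) and 15 within 100 kb (10.7%), and the median distance was 492 kb. With windows around TSSs left out, 0 genes had a region in the body. With regions away from promoters only, 10 genes had one within 100 kb, and the median distance was 526 kb. The share of other genes with a region at the promoter was 4.34% when compared by CpG observed over expected, 11% by GC content, 5.11% by a logistic fit on the CpG count, 5.61% by the CpG count of the first TSS, 3.99% with the first TSS only (added) and 15.6% by number of TSSs (added), where the main value was 4.69%. Genes of like length had a region in the body in 14.2%, against 16.3% of the sarcomere genes, and genes with a like number of neighbouring TSSs had one within 100 kb in 49.2%. No paired analysis was possible because a single list stands for both ChIP libraries, and neither library could be left out for the same reason. The regions carry no score to filter on, and depth is unknown, so that a missing region is no sign of missing BRG1. The cause was not tested for any value that moved.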
